A study of Mus musculus with 24 samples.

Results

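The regions described here are stretches of open chromatin that were called as peaks throughout the first days of cardiac differentiation of mouse embryonic stem cells and in no list after day 4. They were chosen by the peak calls themselves: all peaks of 12 lists were merged, and a region was kept if every list from 2i to D3 held it and none of D5, D6, D7, D8, D10 and D15 did. The rule made no demand of D4. It found 1497 regions among 128679. Their presence from 2i to D3 and absence from D5 on are therefore how they were picked and not a result. A region absent from a list was not called there and is not shown to be closed.

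The cells were of A2lox.cre, an established mouse embryonic stem cell line, and the assay was ATAC-seq, in which a transposase cuts accessible DNA of detergent-lysed nuclei. There were 24 samples, 2 biological replicates at each of 12 time points: 2i, days 0 to 8, day 10 and day 15, the last being the cardiomyocyte stage. The labels give no treatment, genotype change or differentiation agent beyond these stages. Each time point has a single peak list shared by its replicates, so no replicate spread could be had and no test was run. Shares carry Wilson 95% intervals that cover counting error only, and neighbouring regions are not independent of each other.

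Embryonic stem cells in 2i, a medium with inhibitors of MEK and GSK3, resemble the naive cells of the early embryo. On release they pass through formative and primed states before gastrulation-like steps that give mesoderm and then heart muscle. Much of this change takes place at enhancers, which lie away from gene starts and are opened by factors such as OCT4, SOX2 and OTX2. Promoters of housekeeping genes, in contrast, are rich in CpG and open in most cells. Many germline genes belong to a further class, whose CpG-containing promoters are unmethylated in early embryonic cells and gain DNA methylation as the embryo implants.

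A minority of the regions covered a gene start. 7 of these starts are shown because they carry the most recognisable genes of the set: Pou5f1, which encodes OCT4, and 6 genes known for the germ line. The windows run from 250 bases before to 50 after the start, 5′ to 3′ on the gene's strand, as RefSeq gives them for GRCm38.p6. Capitals mark matches on either strand to GCGCATGCG (NRF1 type), CACGTG (E-box of MYC and MAX type) or TCCCGC (E2F type). Pou5f1 holds no match to these 3 motifs.
Pou5f1 (chr17:35505782-35506081, + strand): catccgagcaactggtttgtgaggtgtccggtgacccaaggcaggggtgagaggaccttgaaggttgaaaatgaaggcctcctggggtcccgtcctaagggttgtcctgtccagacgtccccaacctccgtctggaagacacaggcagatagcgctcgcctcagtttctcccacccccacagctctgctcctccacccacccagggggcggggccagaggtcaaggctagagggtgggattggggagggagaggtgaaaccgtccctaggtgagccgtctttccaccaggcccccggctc
Tex19.1 (chr11:121145893-121146192, + strand): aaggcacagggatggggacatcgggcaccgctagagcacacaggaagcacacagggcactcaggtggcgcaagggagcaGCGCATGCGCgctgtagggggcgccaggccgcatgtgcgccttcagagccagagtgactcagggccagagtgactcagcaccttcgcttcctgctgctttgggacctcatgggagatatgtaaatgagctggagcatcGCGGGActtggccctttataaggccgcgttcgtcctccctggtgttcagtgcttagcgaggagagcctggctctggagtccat
Mael (chr1:166238695-166238994, - strand): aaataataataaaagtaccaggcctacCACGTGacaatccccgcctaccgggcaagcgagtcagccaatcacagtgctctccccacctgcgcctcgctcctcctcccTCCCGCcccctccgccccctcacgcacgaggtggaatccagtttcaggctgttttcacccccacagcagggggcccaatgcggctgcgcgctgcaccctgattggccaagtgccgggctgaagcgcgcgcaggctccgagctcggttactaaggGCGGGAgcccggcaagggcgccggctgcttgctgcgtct
Spata22 (chr11:73329491-73329790, + strand): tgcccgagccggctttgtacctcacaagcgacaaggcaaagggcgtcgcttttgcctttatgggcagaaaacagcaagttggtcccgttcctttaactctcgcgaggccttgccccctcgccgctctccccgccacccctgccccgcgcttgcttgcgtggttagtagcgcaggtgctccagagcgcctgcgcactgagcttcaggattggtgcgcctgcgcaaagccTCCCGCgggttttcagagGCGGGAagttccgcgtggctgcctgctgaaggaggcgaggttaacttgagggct
Stk31 (chr6:49395289-49395588, + strand): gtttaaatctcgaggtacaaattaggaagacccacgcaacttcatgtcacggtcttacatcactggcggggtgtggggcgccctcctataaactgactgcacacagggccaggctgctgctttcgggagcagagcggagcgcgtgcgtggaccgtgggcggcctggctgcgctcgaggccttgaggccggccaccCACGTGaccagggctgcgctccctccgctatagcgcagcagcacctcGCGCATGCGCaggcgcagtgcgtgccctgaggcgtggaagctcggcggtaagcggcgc
Gpat2 (chr2:127424949-127425248, + strand): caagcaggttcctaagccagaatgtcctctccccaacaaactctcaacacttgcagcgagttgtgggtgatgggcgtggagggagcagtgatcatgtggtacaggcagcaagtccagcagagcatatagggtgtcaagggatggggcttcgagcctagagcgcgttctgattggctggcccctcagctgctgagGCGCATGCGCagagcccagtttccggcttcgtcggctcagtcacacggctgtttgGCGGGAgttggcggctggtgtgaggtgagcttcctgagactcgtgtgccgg
Rnf212 (chr5:108774978-108775277, - strand): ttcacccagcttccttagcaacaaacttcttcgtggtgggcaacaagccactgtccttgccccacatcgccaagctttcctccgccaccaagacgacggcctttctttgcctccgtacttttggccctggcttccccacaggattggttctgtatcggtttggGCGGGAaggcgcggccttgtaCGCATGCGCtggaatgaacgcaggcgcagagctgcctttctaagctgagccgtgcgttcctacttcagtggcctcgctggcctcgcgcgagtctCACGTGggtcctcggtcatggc

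Another 5 of the overlapped starts belong to zinc finger genes that lie near each other on chromosome 7. Windows of 2 of them are shown because they are the most alike pair of the 5, with 91.7% identical bases. Capitals mark the GATA motif AGATAAG on either strand.
Zfp977 (chr7:42592496-42592795, - strand): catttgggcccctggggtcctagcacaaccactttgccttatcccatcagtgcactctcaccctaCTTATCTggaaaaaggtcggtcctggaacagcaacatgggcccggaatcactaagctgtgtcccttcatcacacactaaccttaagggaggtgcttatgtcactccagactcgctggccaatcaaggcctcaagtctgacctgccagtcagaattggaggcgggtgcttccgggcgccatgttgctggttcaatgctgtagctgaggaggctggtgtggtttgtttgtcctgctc
EU599041 (chr7:43213789-43214088, + strand): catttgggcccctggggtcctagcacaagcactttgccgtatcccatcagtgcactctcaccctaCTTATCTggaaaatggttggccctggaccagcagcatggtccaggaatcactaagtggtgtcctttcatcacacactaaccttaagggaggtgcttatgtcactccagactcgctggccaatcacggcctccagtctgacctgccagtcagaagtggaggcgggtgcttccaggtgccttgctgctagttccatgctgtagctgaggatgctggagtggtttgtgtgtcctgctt

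One region lay 6.07 kb from the hairpin of Mir290a, the first of the miR-290 cluster, which makes the main microRNAs of mouse embryonic stem cells. Mature 3p microRNAs of the cluster are given from RefSeq with the seed, bases 2 to 8, in capitals. The seeds of miR-294-3p and miR-295-3p are identical, those of miR-290a-3p and miR-291b-3p share their first letters AAGUGC with them, and miR-293-3p has another seed.
mmu-miR-290a-3p: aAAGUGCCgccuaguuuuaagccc
mmu-miR-291b-3p: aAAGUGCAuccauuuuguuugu
mmu-miR-293-3p: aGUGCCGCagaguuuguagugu
mmu-miR-294-3p: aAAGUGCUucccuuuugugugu
mmu-miR-295-3p: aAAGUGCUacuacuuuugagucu

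Regions held throughout 2i to D3 mostly did one of 2 things later. Of the 14681 such regions, 1497 (10.2%) were in no later list and 11200 (76.3%) were in all 6. In between, 302 were in 1 later list, 233 in 2, 272 in 3, 530 in 4 and 647 in 5, which is 1984 together. The regions lost after D3 thus outnumbered those of each intermediate number of later lists taken alone, but not the 1984 together. The rule's edges were uneven. Of the 302 regions held by 1 later list, 174 were in D5, 20 in D6, 76 in D7, 16 in D8, 2 in D10 and 14 in D15. Conversely, 849 regions of no later list were missed because D3 alone of the early lists did not hold them, against 394 for D2, 375 for D1, 97 for D0 and 152 for 2i. Just inside the rule, the lowest −log10 q over 2i to D3 had a median of 4.68 over members, and it was under 2 in 131 of them (8.75%). Just outside, the later peak of the 302 regions had a median −log10 q of 3.91.

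D4 is the only list the rule did not use. It held 414 of the 1497 regions, 27.7% (25.4 to 30.0%), against 38.0% of all regions. The share was 19.6% with equal numbers of top peaks per list, and 11.7% where D4 peaks needed a −log10 q of at least 5, a setting added after seeing the data. Regions in 1 later list were called at D4 in 70.5% of cases (65.2 to 75.4%), regions in 2 in 70.4% (64.2 to 75.9%), in 3 in 82.7%, in 4 in 89.2%, in 5 in 93.5% and in all 6 in 99.0%. The step lay between the regions in no later list and those in 1, whose intervals do not overlap. These classes are set by the later lists. Of the 302 regions in 1 later list, 174 were in D5, the list next to D4, which holds none of the lost regions by the rule. The step is therefore given as a description. D4 has 56053 peaks and is the second longest list after D7, with 66993, while D1 with 31324 is the shortest. For the same enrichment D4 gave less statistical weight than any list but 2i. Among peaks whose fold was 4.9 to 5.1, the middle value of −log10 p was 7.71 at D4, against 7.69 to 11.6 in the early lists and 8.62 to 11.5 in the later ones. What this difference in weight does to the calls was not tested. In bulk samples, fewer cells with an open site and less access per cell cannot be told apart.

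**Figure D1:**
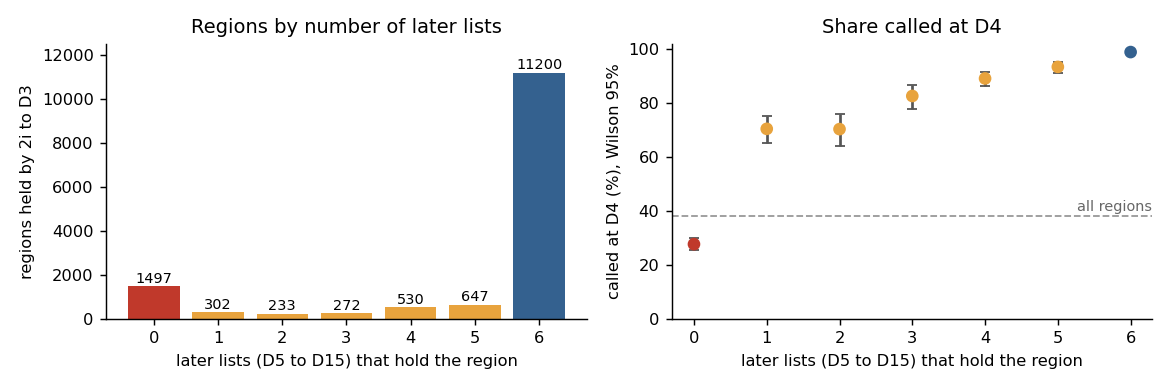
Regions held by all of 2i to D3, by how many of the 6 later lists hold them: left, their number; right, the share called at D4 with Wilson 95% intervals, and the share of all regions as a dashed line. The 1497 regions in no later list were called at D4 in 27.7% of cases, below the 38.0% of all regions and below every other group, which range from 70.4 to 99.0%.

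The regions' rank among the peaks of each list was already falling before the calls ended. The authors' peak caller gives each peak a fold enrichment over background, and each peak was ranked by it as a percentile within its own list, since lists differ in length and depth. From 2i to D3 the regions' median percentile was 77.2, 73.7, 64.9, 56.9 and 51.2, and at D4 it was 40.1 for the 414 called there. Regions kept in all 6 later lists had medians of 78.2, 78.9, 74.7, 83.1 and 84.6 over the same early lists and 84.4 at D4. The lost and the kept regions thus ranked almost alike at 2i and far apart at D3. The rank at D3 was below that at 2i in 1154 of the 1497 regions (77.1%), with a median difference of -22.7 percentile points, against 3723 of the 11200 kept regions (33.2%) and 5.99 points. Among the lost regions the highest rank fell at 2i in 588, D0 in 429, D1 in 231, D2 in 125 and D3 in 124. These percentiles come from the calls that chose the regions and are given as a description.

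Fold enrichment itself showed this less plainly. From 2i to D3 its median in the lost regions was 6.95, 6.51, 5.98, 5.71 and 6.60, with 4.28 at D4. In the kept regions it was 7.06, 7.00, 6.69, 8.75, 15.3 and 8.03 over the same lists. The kept regions at D3 stand apart at 15.3, more than in the lists on either side, and D3 also has the highest statistical weight at a given fold. The fold values of different lists are therefore best read through their ranks.

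**Figure D2:**
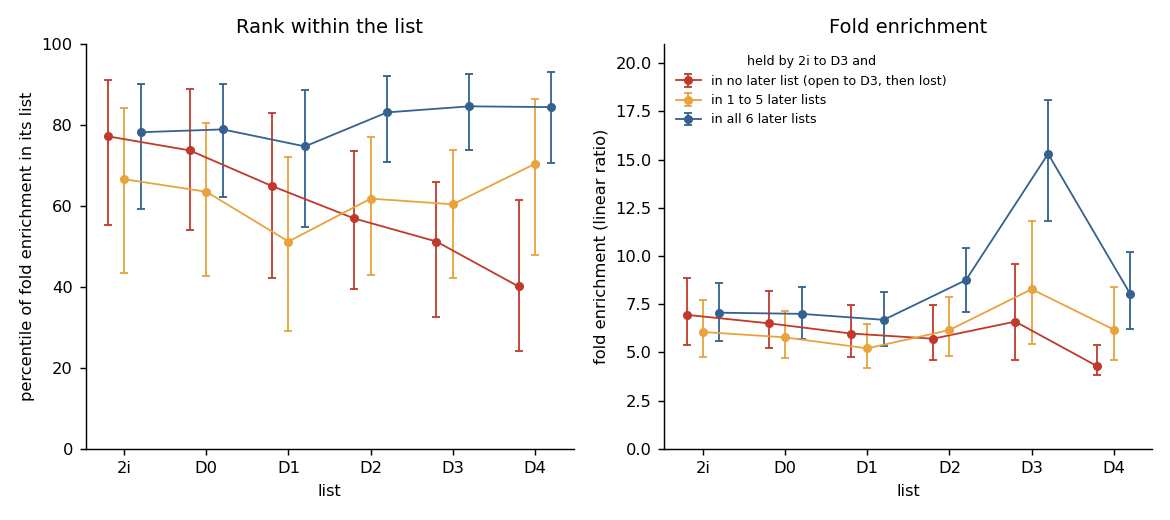
Percentile of fold enrichment within the list (left) and fold enrichment as a linear ratio (right) for regions held by 2i to D3, as medians with quartiles; at D4 only regions called there count. The regions lost after D3 have median percentiles of 77.2 at 2i and 51.2 at D3, while regions in all 6 later lists have 78.2 and 84.6.

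Among the lost regions, a call at D4 went with strength at D2 more than with strength at D3. Split into 4 equal groups by fold enrichment at D2, 18.4% of the weakest (14.8 to 22.6%), then 23.5%, 27.8% and 40.9% of the strongest (36.0 to 46.0%) were called at D4. With groups by D3 the shares were 28.5%, 28.1%, 24.3% and 29.7%, with no order. By D1 they were 24.3%, 24.9%, 26.5% and 35.0%, by D0 26.4%, 25.1%, 27.0% and 32.1%, and by 2i 24.3%, 25.7%, 28.9% and 31.8%. The strongest group by D2 had folds of 7.44 to 14.3 and the weakest 2.78 to 4.61. These groups rest on the calls that chose the regions, and no other class was split this way. The shares are therefore given as a description.

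In most of the regions the early peaks sat close together. The summits of the 5 early lists spanned a median of 166 bp, and at most 100 bp in 429 regions (28.7%). By the rule no later peak overlapped a region. In 80 regions (5.34%) one lay within 1 kb, and the median distance to the nearest was 15.0 kb. No other class was measured for this, so these values are a description. The regions had a median width of 861 bp, against 990 bp for regions in 1 to 5 later lists, 1219 bp for regions in all 6, 607 bp for regions called at 2i and D0 only, and 502 bp for all regions. Width grows with the number of lists merged.

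The lost regions were rare at gene ends, and more of them than of all regions lay over 50 kb from a gene. The centre was within 1 kb of either end of a protein-coding gene in 49 of 1497, 3.27% (2.48 to 4.30%), against 24.5% of regions in 1 to 5 later lists, 76.3% of regions in all 6 and 11.9% of all regions. It lay over 50 kb from any protein-coding gene in 542, 36.2% (33.8 to 38.7%), against 17.5%, 1.76% and 26.0%. The centre was inside a gene body in 488 (32.6%) and outside but within 50 kb in 467 (31.2%), against 48.2% and 25.9% of all regions. Regions called at 2i and D0 only, a class lost earlier, were also rare at gene ends (2.53%, 2.03 to 3.15%), but fewer lay over 50 kb away (29.6%, 28.0 to 31.3%). Exons, introns and UTRs were not distinguished here. Chromosome 1 held 9.35% of the regions (7.98 to 10.9%), against 7.61% of all regions, and chromosome 19 held 1.07% (0.659 to 1.73%), against 2.04%. Regions called at 2i and D0 only had 9.10% and 1.68% there, both within the intervals of the lost regions. Other chromosomes are not given here.

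**Figure D3:**
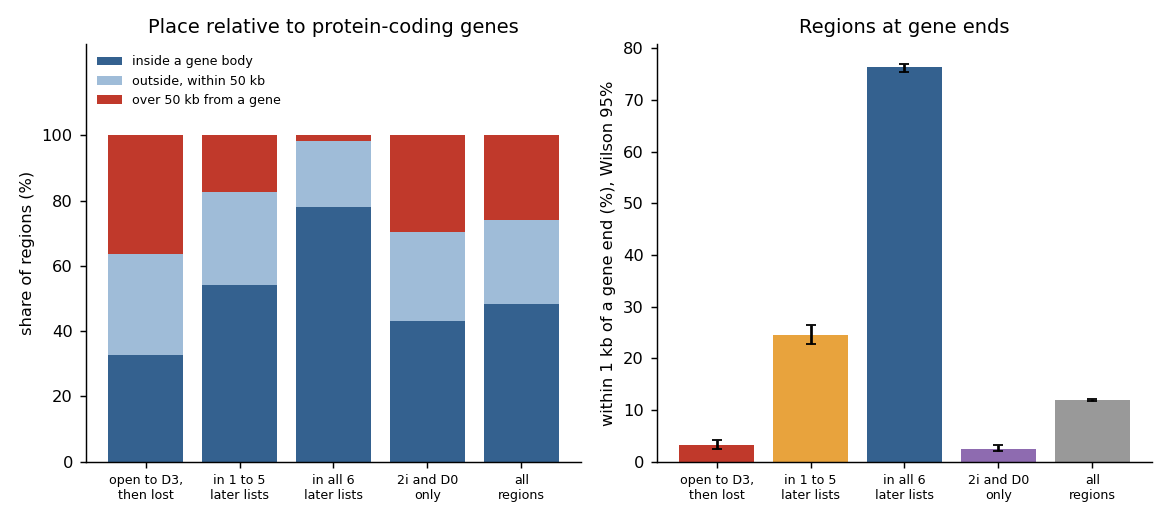
Place of regions relative to protein-coding genes: left, stacked shares by the centre's distance; right, share within 1 kb of a gene end with Wilson 95% intervals. Regions open to D3 and then lost are at gene ends in 3.27% of cases and over 50 kb away in 36.2%, while regions in all 6 later lists have 76.3% and 1.76%.

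Among the lost regions, the share called at D4 differed with distance. Of the 542 regions over 50 kb from a gene, 34.3% (30.4 to 38.4%) were called at D4, against 21.8% (18.3 to 25.8%) of those outside genes within 50 kb and 25.8% (22.1 to 29.9%) of those inside a gene. At gene ends it was 14 of 49, 28.6% (17.8 to 42.4%). These shares were not counted for other classes or for all regions, of which D4 held 38.0%. Whether they are particular to the lost regions was not tested.

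Grouping was counted for the lost regions only and is given as a description. There were 67 pairs of neighbours at most 50 kb apart and 10 at most 10 kb apart, and 126 regions stood in runs of 2 or more. Of 7 runs of 3 or more, the largest had 4 regions over 90.6 kb (chr7:43177265-43267906, mm10) at the zinc finger genes Zfp936, EU599041 and Gm35588. The others were at Sntg1, Tlr4, Mfap3l, Tll1 and Cpe, Ttc29, and Cntn5. Genes with many of the regions were mainly long. Other classes were not counted by gene, so whether this is particular to the lost regions was not tested. Sntg1, which encodes a syntrophin and has a gene body of 942 kb, had 5, and Adgrl3, an adhesion receptor gene of 809 kb, had 4. Etl4, Macrod2, Magi2, Mfap3l, Naaladl2, Sox5 and Tmem131l had 3 each, and of these Mfap3l was short at 43.9 kb.

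The 10 regions with the highest mean percentile over 2i to D3 had means of 94.4 to 99.2. Of these, 3 lay inside a gene, 4 lay over 50 kb from one, and 6 were called at D4. First was a region inside Lrp1b, a lipoprotein receptor gene (chr2:40910507-40911323), with folds of 13.6, 17.5, 13.8, 13.6 and 20.4 from 2i to D3 and 10.1 at D4. The nearest later peak was 424 kb away. A region 217 kb from Akr1e1 had 12.6, 11.4, 14.0, 13.7 and 15.0 and was not called at D4, so a high rank did not go with a D4 call in every case. Regions 411 kb from Pex2, 850 kb from Lrfn5 and 108 kb from Ahr, and one inside Adgrl3, were also among the 10. The remaining ones were near Mup4, Vmn2r85, Smgc and Zfp640. Mup4, Vmn2r85 and Zfp640 belong to families of similar genes, where reads of near-identical copies can be shared, so their values are uncertain.

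Pluripotency genes were more common near the lost regions than near regions at large. A region was assigned to the protein-coding gene that holds its centre, or else to the nearest within 50 kb. The 55 genes of 3 pluripotency lists had 19 of the regions, at 17 genes, which is 1.27% of the 1497 (0.814 to 1.97%), against 0.355% of all regions. The general pluripotency list had 9 (0.601%, against 0.115%), the formative and primed list 5 (0.334%, against 0.0863%) and the naive list 5 (0.334%, against 0.154%). Regions in all 6 later lists had 0.125%, 0.107% and 0.107% near the same lists. Earlier results of these data already had naive genes near regions lost on differentiation, so these counts are not independent support. The interval of the naive share, 0.143 to 0.779%, includes the share of all regions, and those of the other lists, 0.317 to 1.14% and 0.143 to 0.779%, do not. Of the 19, 5 were called at D4, 26.3% (11.8 to 48.8%), near the 27.7% of all the lost regions.

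In the general list the regions lay near Fgf4, Gdf3, Jarid2, Mycn, Nodal, Pou5f1, Sox2, Tcf7l1 and Trim71, 1 each. Nodal, a TGF-beta ligand that maintains the primed state, had one 1.85 kb from the gene (chr10:61415576-61416669) with folds of 4.74, 3.79, 7.09, 3.08 and 6.37 from 2i to D3. Mycn, a MYC-family factor, had one 8.78 kb away (chr12:12926944-12927693) with 6.24, 5.72, 5.98, 8.60 and 10.1. Jarid2, which recruits Polycomb, had one 25.1 kb away with 5.76, 8.23, 4.80, 5.62 and 9.66. None of these was called at D4. The regions near Gdf3 and Fgf4, which encode a TGF-beta ligand and a growth factor of stem cells, were weak, with folds of 4.55 and 2.88 at D3.

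Pou5f1, Sox2, Tcf7l1 and Trim71 were named after their values were seen. The Pou5f1 region (chr17:35503750-35506151) is 2402 bp wide and covers the promoter shown above and sequence before it. From 2i to D3 its folds were 3.31, 3.40, 3.03, 6.12 and 11.3, and the fold at D4 was 3.05. The region was thus low in rank at 2i (percentile 6.12) and high at D3 (72.2), the opposite order to most of the regions. Each value is that of the highest peak in the region, so over this width the values may not follow a single site. It is the only region assigned to Pou5f1 in the merged lists. The Sox2 region lay 16.0 kb from the gene (chr3:34668132-34668797) with folds of 3.14, 4.81, 4.31, 3.71 and 6.88 and no call at D4. Tcf7l1, a repressor at Wnt targets, and Trim71, an RNA-binding ubiquitin ligase, had folds of 4.83 and 4.99 at D3, and the Trim71 region was called at D4 with 4.48.

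Of the naive genes Esrrb had 2 regions and Dppa3, Klf2 and Tcl1 had 1 each. The Esrrb regions, both inside this nuclear receptor gene, had folds of 3.91, 4.02, 5.80, 5.26 and 7.08 (chr12:86469936-86471525) and of 2.71, 2.96, 3.77, 4.18 and 5.17 (chr12:86498650-86499223), neither called at D4. Early summits of the first of these regions spanned 1117 bp, so its folds may not follow a single site. Dppa3, a maternal factor that protects DNA from demethylation, had one 1.70 kb away (chr6:122624365-122625094) with 8.40, 6.03, 7.40, 5.46 and 6.60. Klf2, a Krüppel-like factor, had one 7.94 kb away with 5.40, 6.35, 5.04, 4.85 and 9.29. The Tcl1 region, 36.5 kb from this AKT coactivator gene, had 7.41, 3.61, 6.46, 6.83 and 5.95 and was called at D4 with 3.43. By percentile the Dppa3 region was highest at 2i, with 88.8, and the Esrrb regions at D1, with 62.6, and at D3, with 40.0. Nanog, Klf4 and Tfcp2l1 had none of the lost regions. Of the regions near them that all of 2i to D3 held, 2, 2 and 1 in number, every one was in all 6 later lists. Zfp42 also had none, and its single region held by all of 2i to D3 was not in all 6.

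Formative genes were Foxd3 with 2 and Otx2, Etv5 and Lef1 with 1 each. Otx2, a homeobox factor of the formative state, had one 33.6 kb away (chr14:48700672-48701777) with folds of 9.47, 4.41, 5.56, 5.23 and 12 and 4.19 at D4. The Foxd3 regions, near this forkhead factor of the primed epiblast, had 4.99, 4.96, 7.10, 7.86 and 10.6 at 14.2 kb and 5.27, 3.37, 4.11, 3.66 and 5.38 at 5.63 kb, and only the second was called at D4, with 3.28. Lef1, a mediator of Wnt signals, had 8.55, 7.87, 5.32, 6.22 and 7.20. Etv5, an ETS factor downstream of FGF, had 5.88, 4.14, 3.50, 4.02 and 7.69. In fold, the pattern over the early lists therefore differed from gene to gene within each list. Percentiles gave some genes another order. Otx2, Etv5, Jarid2, Klf2 and Mycn had their highest fold at D3 but their highest percentile earlier. For Otx2 it was 93.9 at 2i and 74.4 at D3, for Jarid2 89.3 at D0 and 66.1 at D3. For Mycn it was 82.2 at D2 and 68.1 at D3. Other genes, among them Sox2 (52.8) and Pou5f1 (72.2), were highest at D3 by percentile too.

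**Figure D4:**
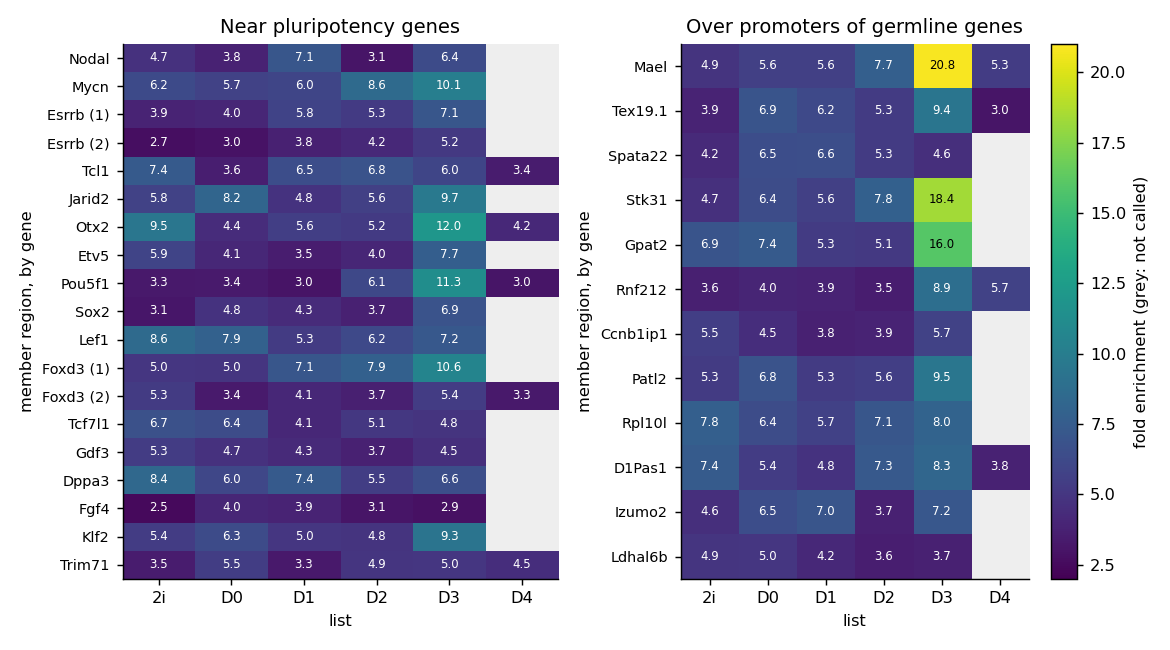
Fold enrichment (colour and number) from 2i to D4 of the 19 regions near pluripotency genes (left) and of the regions over 12 promoters of genes known for the germ line (right); grey is not called at D4. Mael (20.8), Stk31 (18.4) and Gpat2 (16.0) have their highest value at D3, and 5 of the 19 regions on the left were called at D4.

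Other gene lists had few or none. Cardiac progenitor factors had 1 region (0.0668%, against 0.192% of all regions), inside Meis2, a homeobox cofactor, with folds of 7.03, 5.53, 3.74, 8.41 and 6.15. Sarcomere genes had 1 (0.0668%, against 0.103%), 18.2 kb from Nebl, which encodes nebulette of the Z-disc. The FGF and Nodal pathway had 2 (0.134%, against 0.131%), near Spry2, an inhibitor of FGF signalling, and Smad7, an inhibitor of TGF-beta signalling. No region was assigned to the lists of epithelial genes, primitive streak and mesendoderm genes, neural ectoderm genes or housekeeping genes, whose shares of all regions were 0.0878%, 0.0653%, 0.0925% and 0.0381%. A count of 0 of 1497 allows a share of up to 0.200%, above each of these, so no difference was detectable. The list of DNA methylation and germline genes had 2 (0.134%, against 0.0412%), at Mael and Tex19.1, with an interval of 0.0366 to 0.486% that includes the share of all regions.

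Both of those were at promoters. In all, 47 of the 1497 regions (3.14%, 2.37 to 4.15%) overlapped a promoter window, against 72.4% of regions in all 6 later lists and 10.4% of all regions. They covered starts of 49 genes. Long noncoding RNA genes made up 19 of the 49 (38.8%), against 11.9% of the genes reached by regions in all 6 later lists, 19.7% of those reached by all regions and 35.5% of the genes in the RefSeq table. Platr20 and Gm32362, which share their regions with Gm12569 and with Pou5f1, are among them. Of the 47 regions, 19 (40.4%) were called at D4, against 27.7% of all the lost regions and 38.0% of all regions. No interval was computed for this small set, so no difference is read from these shares.

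After the 49 names had been seen, 12 were picked out as genes known for the germ line or expressed in testis or oocyte. The share of such genes among all promoters was not counted, so the 12 are a description and not an enrichment. Mael, of the piRNA pathway, had folds of 4.86, 5.62, 5.61, 7.74 and 20.8 from 2i to D3 and 5.34 at D4 (chr1:166238342-166239101). Stk31, a testis kinase with a Tudor domain, had 4.66, 6.42, 5.61, 7.80 and 18.4 (chr6:49395324-49395954). Gpat2, an acyltransferase that acts in piRNA production, had 6.92, 7.40, 5.32, 5.14 and 16.0 (chr2:127424805-127425662). All of these were highest at D3, in fold and in percentile. Tex19.1, which restrains transposons in germ cells, had 3.92, 6.91, 6.18, 5.32 and 9.36, and 3.05 at D4. Rnf212, a crossover factor, had 3.65, 4.00, 3.88, 3.52 and 8.88, and 5.73 at D4. Spata22, a meiotic recombination protein, had 4.24, 6.52, 6.57, 5.32 and 4.59 and did not follow them.

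The other genes of the 12 were Ccnb1ip1, a meiotic crossover ligase, Patl2, an oocyte RNA-binding protein, Rpl10l, a ribosomal retrogene of testis, D1Pas1, a DEAD-box helicase of testis, Izumo2, a relative of the sperm fusion protein, and Ldhal6b, a lactate dehydrogenase of testis. Their folds at D3 ranged from 3.73 to 9.47. Over the 12 genes the median fold was 4.89 at 2i and 8.59 at D3, and in 10 of them the fold was highest at D3, as was the median fold of regions in all 6 later lists. By percentile within the list D3 was highest in 4 of the 12 (Mael, Stk31, Gpat2 and Rnf212), D0 in 4, 2i in 3 and D1 in 1. The percentile of Tex19.1, for example, was 78.2 at D0 and 65.0 at D3, and that of D1Pas1 was 81.8 at 2i and 60.5 at D3. The median percentile of the 12 was 45.2, 72.0, 57.2, 51.3 and 61.8 from 2i to D3. Of the 12, 4 were called at D4, 33.3% (13.8 to 60.9%), an interval that includes the 27.7% of all the lost regions. As a whole, regions over promoters had median percentiles of 65.9, 71.6, 59.5, 58.3 and 57.9 from 2i to D3, against 77.7, 74.0, 65.5, 56.8 and 51.2 for the other 1450, so their fall in rank was smaller.

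The promoters were poorer in CpG than those that stayed open. The ratio of observed to expected CpG had a median of 0.374 over the 49 windows, against 0.816 over the promoters reached by regions in all 6 later lists and 0.384 over all promoters. It was higher in the germline promoters, with a median of 0.645 and a range of 0.156 to 0.908, and lower in the 5 zinc finger promoters, at 0.160 to 0.271. GC content was 52.0%, against 63.3% and 52.7%.

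Motifs were counted as exact letters on both strands in the 300-base windows, 1 window per gene, so a match is a description of the sequence and not a site in use. Not all windows are separate sequences. Those of Pou5f1 and Gm32362 overlap, as do those of Gm12569 and Platr20, and the 5 zinc finger windows are alike. A shared match counts more than once, and the intervals do not allow for this. Both windows with the GRHL motif are the overlapping ones of Pou5f1 and Gm32362. Of 15 motifs chosen with the gene lists, 14 were found in at least 1 of the 49 windows. CAGGTG, the E-box of SNAI and ZEB, was in 42.9% (30.0 to 56.7%), against 16.8% of the promoters reached by regions in all 6 later lists and 20.2% of all promoters. CAGCAGG (ZIC) was in 24.5% (14.6 to 38.1%), against 9.24% and 10.5%, and TAATCC (OTX) in 14.3% (7.10 to 26.7%), against 4.72% and 7.20%. AGATAAG, a motif of GATA factors, was in 10.2% (4.44 to 21.8%), against 1.25% and 3.07%. Of the 15, these stood furthest above kept promoters in percentage points, and with 49 windows their intervals are wide.

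The intervals of the pluripotency motifs all included the share of all promoters. ATGCAAAT (POU octamer) was in 4.08% (1.13 to 13.7%), against 1.43% and 1.75%, ACAATGG (SOX) in 6.12%, against 1.66% and 3.70%, CCNCACCC (KLF) in 20.4%, against 19.8% and 16.4%, and CAAGGTCA (ESRRB) in 2.04%, against 0.793% and 1.47%. TTGTNATGC (SOX-POU composite core), which can share letters with the octamer, was in 2.04%, against 0.271% and 0.769%. The remaining ones were AACCNGTT (GRHL, 4.08%, against 1.47% and 1.97%), AGGTGTNA (T-box, which can overlap CAGGTG, 2.04%, against 1.90% and 3.09%), CATTCCA (TEAD, 8.16%, against 2.25% and 4.38%), TGANTCA (AP-1, 6.12%, against 3.31% and 7.95%) and CNAGNGGGC (CTCF core, 8.16%, against 12.8% and 7.04%). TAAAAATAG (MEF2) was in none of the 49, against 0.250% and 0.493%. Because most of the regions overlap no promoter window, these shares say nothing of the other 1450.

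A further 6 motifs were added after the overlapped genes had been seen. GCGCATGCG, of NRF1 type, was in 12.2% (5.73 to 24.2%), against 4.34% and 1.77%, and 5 of its 6 windows were germline promoters: Tex19.1, Stk31, Gpat2, Rnf212 and Ccnb1ip1. 4 of these are printed above, where the letters stand as a block of capitals. TCCCGC (E2F type) was in 36.7%, against 41.4% and 20%, and in 9 of the 12 germline windows. GGGCGG (SP type), the commonest motif of kept promoters at 72.8%, was in 28.6%, against 35.9% of all promoters. CCAAT, a promoter box, was in 57.1%, against 39.1% and 38.0%, and its windows include all 5 of the zinc finger genes. CACGTG was in 12.2%, against 10.8% and 7.15%, and CCGGAA (ETS type) in 22.4%, against 29.8% and 15.3%.

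The GATA matches were not spread over the set: 4 of the 5 lay in the zinc finger genes of chromosome 7, Zfp977, Gm17768, EU599041 and Gm35588. Those windows and that of Zfp936 were alike, with 72.7 to 91.7% identical bases between pairs in a global alignment, against 56.3 to 62.3% between pairs of the 7 promoters printed first. Reads from such copies may be shared between them, and their values are uncertain. The region at Zfp977 had folds of 9.16, 9.05, 7.85, 4.96 and 4.02 from 2i to D3 and was not called at D4. That at Gm17768 had 11.5, 11.0, 7.47, 7.09 and 4.88, and 5.72 at D4. Both declined from 2i on, whereas EU599041 had 5.93, 5.22, 4.86, 7.88 and 5.74 and 7.63 at D4. By percentile none of the 5 was highest at D3, and their median percentile was 92.7, 90.1, 78.3, 70.7 and 44.9 from 2i to D3.

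**Figure D5:**
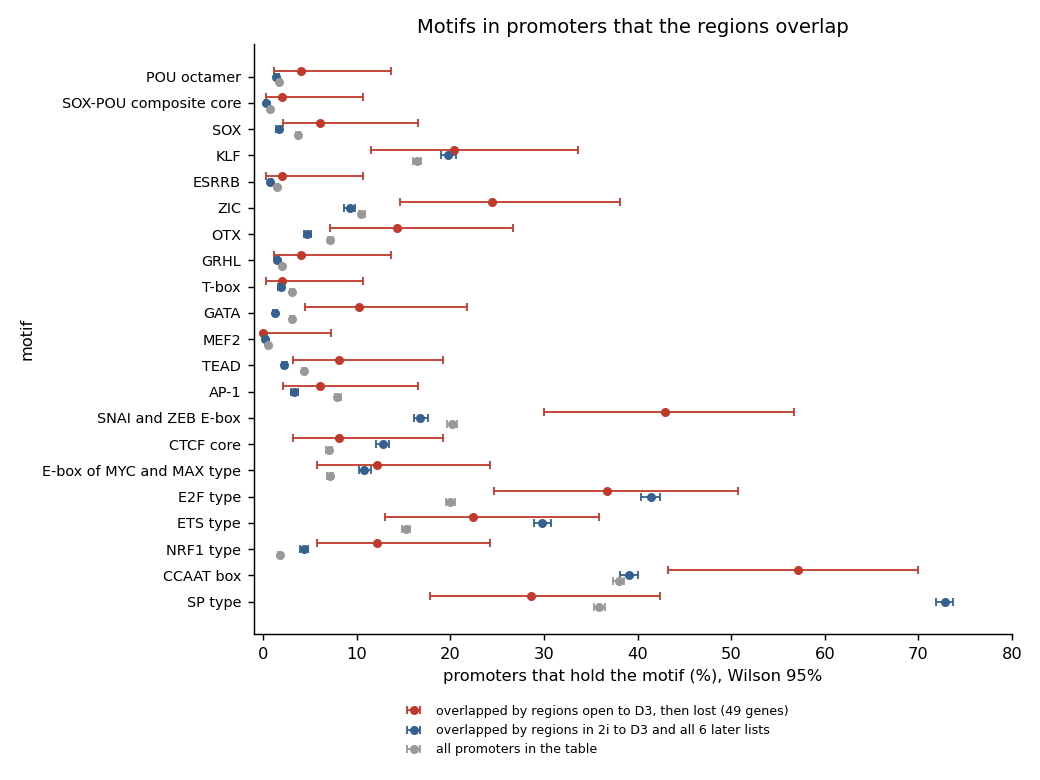
Share of 300-base promoter windows that hold each motif, with Wilson 95% intervals, for promoters of 49 genes overlapped by regions open to D3 and then lost, for promoters overlapped by regions in 2i to D3 and all 6 later lists, and for all promoters. The E-box of SNAI and ZEB is in 42.9% of the first, against 16.8% and 20.2%, and the SP type in 28.6%, against 72.8% and 35.9%.

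MicroRNA genes were near 14 of the regions, counted as hairpins within 20 kb, 22 hairpins in all. That is 0.935% of the regions (0.558 to 1.56%), against 4.68% of regions in all 6 later lists and 2.10% of all regions. The region at the miR-290 cluster (chr7:3211806-3212561), whose microRNAs are shown above, had folds of 5.78, 6.17, 4.69, 5.17 and 5.34 from 2i to D3 and was not called at D4. It accounts for 8 of the 22 hairpins. Another region lay 10.1 kb from Mir153 with 10.0, 8.20, 7.98, 8.88 and 13.2, and a region 19.3 kb from Mir195b had 8.79, 9.48, 9.71, 10.9 and 4.59. The Mir195b region was the 1 of the 14 called at D4, 7.14% (1.27 to 31.5%), an interval that includes the 27.7% of all the lost regions.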

How the data were processed

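ATAC-seq was done on 24 samples, 2 biological replicates at each of 12 time points, per the labels. The submitters' processing notes name cutadapt 2.10, Bowtie2 2.3.2, SAMtools 1.5, Picard, MACS2 2.1.1 and the mm10 build, with no order or settings. The sources used here do not give the depth, any shift of reads for the transposase, or how replicates became 1 peak list per time point. The deposited fold enrichment of each peak is a linear ratio as the authors' peak caller gave it. The deposited −log10 of p-values and of q-values and the summit offset in base pairs come from the same caller. The deposited integer score of each peak was not used. The lowest −log10 q in each list was 1.30 or 1.31.

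Peaks were merged with bedtools 2.31.1, and a list held a region at an overlap of at least 1 bp. Where a region had several peaks in a list, the highest fold counted. Regions were grouped by the lists that held them. Place was measured from the centre to RefSeq protein-coding genes of GRCm38.p6, the assembly of mm10. Gene ends were used in place of start sites, because the table of promoter windows does not list every gene. No genome sequence was at hand, so motifs were counted in RefSeq promoter windows that regions overlap by 1 bp. Members, gene lists, motifs and comparisons were chosen with earlier results of these data known. Genes were named by rule: up to 5 per list with most, the 10 genes with most regions, any with a region at its end in the pluripotency lists, and the 10 regions of highest mean rank. A gene that the rule names is not reported here. Counts are given with Wilson 95% intervals and the share of all regions, and no test was run. The rule was checked on simulated lists. Python 3.11.15, pandas 2.3.3, numpy 2.4.6 and scipy 1.17.1 were used.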

Additional observations from a re-analysis of the deposited data

How the results depend on the processing

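The number of regions was 777 with only peaks of −log10 q of at least 5 and 414 where D4 had to hold the region. It stayed within 1.5 times of 1497 under the other 7 alternatives, among them leaving out 2i, D1 or D7. The share called at D4, 27.7% as reported, was 19.9% with peaks of −log10 q of at least 5, 19.6% with equal numbers of top peaks per list, 24.9% where a summit had to lie within 250 bp of the mean early summit, and 11.7% with the same q limit on D4 alone, an alternative chosen after seeing the data. The share at gene ends was 5.34% with 2 kb in place of 1 kb and otherwise moved by less than its interval. The share over 50 kb from a gene was 32.6% without D1, 44.9% where D4 held the region and 32.9% where it did not. Counted as over 20 kb it was 48.0% and as over 100 kb 27.4%. The gene lists had 25 regions together, 11 with −log10 q of at least 5 and 8 where D4 held the region. Of these the naive list had 5, 1 where D4 held the region and 8 within 100 kb. The median difference in rank between D3 and 2i, -22.7 points, ranged from -24.2 to -19.7 over all 9 alternatives. Motifs found numbered 12 of 15 in the central 100 bases of the windows and 20 of 21 with the 6 added after seeing the data. A planned window longer than the 300 bases at hand was not run. No paired analysis was possible because each time point has 1 peak list shared by both replicates, and no result comes from a test. For the same reason leaving out a replicate was not possible. A call depends on depth, which the lists do not give.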
